A study of Homo sapiens with 15 samples.

Results

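Wnt signalling was followed through 9 genes in A549 cells given IL-13: the ligand WNT5A, the receptors FZD2, FZD6 and LRP6, the secreted inhibitor DKK1, the intracellular carrier CTNNB1, the transcription factor TCF7L2, and the corepressors TLE1 and TLE4. Among them the corepressor TLE1 stood lowest against its time-matched control, 1.78-fold lower after 24 h of IL-13 than in untreated cells at 24 h, and TCF7L2 and FZD2 were 1.48-fold and 1.44-fold lower. DKK1 was lower in all 3 IL-13 groups than in either untreated group, and TLE4 was highest at 4 h and 12 h of IL-13. DKK1 and TLE4 were chosen by their measured values on these arrays, TLE4 by its difference between 4 h of IL-13 and 0 h, whereas the comparison behind the choice of DKK1 is not recorded in the sources used here. Their values in those comparisons are therefore a description with no test, and TLE4 was tested only between the 2 groups at 24 h. The other 7 genes were added because they belong to the same pathway, with earlier results of these data known.

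The genes are represented by 20 probe sets of 22283 on the array and are 9 of the 11963 genes that a single gene symbol names. A549 is a lung adenocarcinoma epithelial line, given in the labels as a bronchial cell line, and IL-13 is a cytokine of type 2 immunity that acts on airway epithelium. Total RNA was measured on 15 Affymetrix human gene arrays in 5 groups of 3 arrays: IL-13 for 4 h, 12 h and 24 h, and untreated cells at 0 h and 24 h. No dose of IL-13, passage or vehicle is stated in the labels used here, all groups share the one cell line, and the cells carry no stated genetic change. Untreated arrays are labelled only for 0 h and 24 h, so at 4 h and 12 h the effects of IL-13 and of time cannot be told apart, and the same holds for 24 h of IL-13 against 0 h. The labels do not say that the 3 arrays of a group came from separate cultures. A p-value here reflects how much the arrays of a group vary, and that variation may be technical only.

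Signals are the deposited intensities on a linear scale, and a signal says nothing about how one probe set compares with another. Array medians ran from 56.7 to 72.5, with group means of 59.3 ± 4.44 after 24 h of IL-13 and 69.5 ± 3.10 in untreated cells at 24 h (SD, n = 3). Differences are given on the log2(signal + 20) scale after quantile normalization, with the SE of the fit, and passed the test at a limma adjusted p under 0.05. A gene was tested where its mean log2 signal was over a filter of 6.33, the median of the probe sets, which is a signal of 60.3. Groups that do not overlap are common with 3 arrays each: after quantile normalization they made up 26.2% of tested genes between the 24 h groups. Against 0 h the share was 17.3% at 4 h, 23.7% at 12 h and 26.7% at 24 h of IL-13. Between the untreated groups it was 24.7%. Arrays of one group correlated at 0.972 to 0.979. The beta-actin 3'/5' ratio, a measure of RNA integrity, averaged 1.18 ± 0.081 after 24 h of IL-13 and 1.17 ± 0.066 in untreated cells at 24 h (SD, n = 3), against 0.930 to 1.06 on the 3 arrays at 0 h, and its part in differences from 0 h was not tested. Of 6 epithelial markers 5 were over the filter, with KRT7, KRT8 and KRT18 averaging 3270, 4660 and 11200, while EPCAM averaged 53.9, below it. None of 5 leukocyte markers was over the filter, and of 3 alveolar type 2 markers only SFTPC was. Of 5 endothelial markers only PECAM1 was over it, averaging 66.0. Of 6 fibroblast markers, COL1A1 and THY1 were over the filter and none was at 0. The summed signal of that list was 195 to 236 after 24 h of IL-13, against 302 to 352 in untreated cells at 24 h. Over time it was 315 to 370 at 0 h, 325 to 379 at 4 h and 304 to 312 at 12 h of IL-13. The sum was thus lowest in the 24 h IL-13 arrays. Its part in the differences of TLE1, TCF7L2 and FZD2 was not tested. In bulk RNA, fewer cells of a kind and less RNA per cell cannot be told apart.

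In canonical Wnt signalling a secreted Wnt ligand binds a Frizzled receptor and the coreceptor LRP5 or LRP6. This stops the destruction complex of AXIN, APC, casein kinase and glycogen synthase kinase from marking beta-catenin for breakdown, so that beta-catenin reaches the nucleus, binds TCF/LEF factors such as TCF7L2 and displaces TLE corepressors from them. DKK1 binds LRP6 and blocks the receptor step, and it is itself a target of beta-catenin and TCF. WNT5A is best known for signals that run without beta-catenin. In airway epithelium the pathway is known for its roles in lung development, repair and cancer.

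The 250 bases before the RefSeq start sites of DKK1, TLE4 and TLE1 are shown because DKK1 and the 2 TLE genes carry the contrasts described here: DKK1 and TLE1 were lower in cells with IL-13 and TLE4 was higher at 4 h and 12 h. All 3 matched an entry by symbol, in build GRCh38.p14. The DKK1 window is chr10:52314031-52314280 on the plus strand, the TLE4 window chr9:79572927-79573176 on the plus strand, and the TLE1 window chr9:81689548-81689797 on the minus strand, each written 5′ to 3′. The TLE4 window lies inside the span of its gene in this build, chr9:79571965-79726882. It therefore precedes a start within the gene and is not the sequence upstream of the whole gene. Capitals mark the motifs found.
DKK1: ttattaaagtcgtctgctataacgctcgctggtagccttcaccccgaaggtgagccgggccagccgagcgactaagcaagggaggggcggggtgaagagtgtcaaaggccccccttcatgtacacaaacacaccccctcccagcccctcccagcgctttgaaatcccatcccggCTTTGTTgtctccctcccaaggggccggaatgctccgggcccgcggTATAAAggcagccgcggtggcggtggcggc
TLE4: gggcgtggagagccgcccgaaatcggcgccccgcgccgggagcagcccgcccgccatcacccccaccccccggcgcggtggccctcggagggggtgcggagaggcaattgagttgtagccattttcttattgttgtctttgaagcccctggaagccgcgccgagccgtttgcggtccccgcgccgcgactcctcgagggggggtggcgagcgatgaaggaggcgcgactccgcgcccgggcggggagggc
TLE1: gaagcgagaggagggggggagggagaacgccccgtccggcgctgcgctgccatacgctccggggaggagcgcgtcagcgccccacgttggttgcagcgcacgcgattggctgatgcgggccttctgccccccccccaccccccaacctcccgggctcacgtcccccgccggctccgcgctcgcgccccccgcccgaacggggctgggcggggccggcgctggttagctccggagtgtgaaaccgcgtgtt
The motifs searched on both strands were the TCF core CTTTGNT, the TATA box TATAAA and the STAT6 site, TTC and GAA with 4 bases of any kind between them, STAT6 being the main transcription factor downstream of IL-13. The DKK1 window held a TCF core that begins 76 bases before the start and a TATA box that begins 30 bases before it, with no overlap between them. The TLE4 and TLE1 windows held none of the 3 motifs, and no window held the STAT6 site. Of 35116 RefSeq windows of 250 bases, 13.2% held the TCF core, 10.7% the TATA box and 5.38% the STAT6 site. A match is a description of the letters only, and no match says only that these letters are not in this window. The windows are GC-rich, with 62.8% GC for DKK1, 72.8% for TLE4 and 75.2% for TLE1.

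DKK1, the secreted inhibitor that binds LRP6, had 1 probe set (204602_at). Its signal was 655, 914 and 753 in untreated cells at 0 h, then 619, 581 and 585 at 4 h, 405, 485 and 411 at 12 h and 590, 531 and 614 at 24 h of IL-13, against 736, 790 and 810 in untreated cells at 24 h. All 9 arrays with IL-13 lay below all 6 arrays without it, the 12 h arrays lay lowest, and the 4 h and 24 h groups overlapped, as did the untreated groups. Mean signal was 433 ± 44.7 at 12 h and 578 ± 42.9 at 24 h of IL-13, against 778 ± 38.3 in untreated cells at 24 h and 774 ± 131 at 0 h (SD, n = 3). On the log2(signal + 20) scale, the difference from 0 h was -0.33 ± 0.11 at 4 h, -0.76 ± 0.11 at 12 h and -0.39 ± 0.11 at 24 h of IL-13 (SE), so that the 12 h level was 1.69-fold lower. After 24 h of IL-13, DKK1 was 1.41-fold lower than in untreated cells at 24 h, a difference of -0.50 ± 0.11 that ranged from -0.54 to -0.24 over the alternatives of processing. The 2 untreated groups differed by 0.11 ± 0.11. No test is given for DKK1, since its values took part in its choice.

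**Figure D1:**
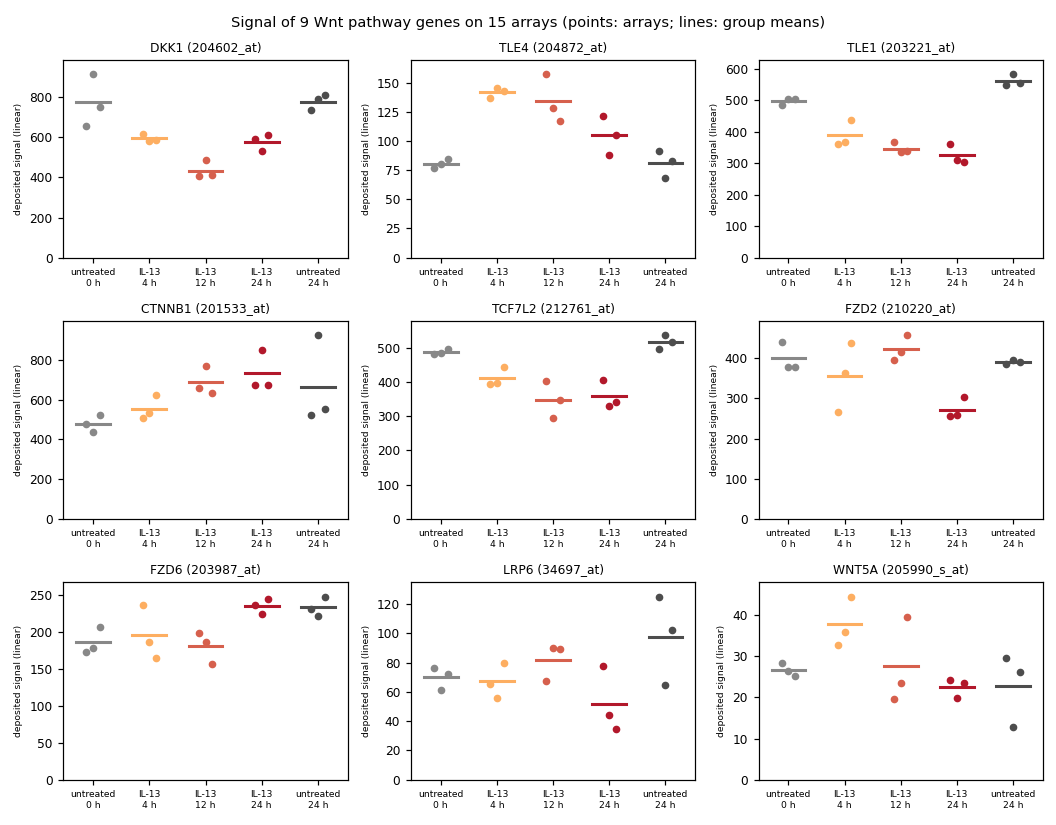
Deposited signal on a linear axis from 0 (vertical) of the brightest probe set of each of 9 Wnt pathway genes in the 5 groups (horizontal); points are arrays and lines group means. The 9 DKK1 points with IL-13 lie at 405 to 619, below the untreated points at 655 to 914, and the TLE1 points after 24 h of IL-13 lie at 304 to 360, below 547 to 582 in untreated cells at 24 h.

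TLE1 and TLE4 encode Groucho-family corepressors, which bind TCF factors and keep their target genes off when beta-catenin is absent. Between the 24 h groups TLE1 was lower with IL-13 and passed the test, while TLE4 was higher on its brightest set and did not pass. TLE4 was chosen by its difference at 4 h of IL-13, so its direction there was fixed by that choice. TLE1 (203221_at) had signals of 360, 311 and 304 after 24 h of IL-13, against 547, 582 and 554 in untreated cells at 24 h. Every IL-13 array lay below every untreated array. TLE1 fell by 0.83 on the log2 scale (SE 0.10, 1.78-fold, limma adjusted p = 5.6e-05), and the call was kept in all 18 alternatives, with differences from -0.89 to -0.58. Its mean signal was 325 ± 30.7 after 24 h of IL-13 and 561 ± 18.9 in untreated cells at 24 h (SD, n = 3).

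In the time series, TLE1 had 484, 505 and 503 at 0 h, then 361, 366 and 437 at 4 h and 366, 334 and 340 at 12 h of IL-13. All 9 IL-13 arrays lay below all 6 untreated arrays, and the 3 times with IL-13 overlapped in part. The difference from 0 h was -0.33 ± 0.10 at 4 h, which did not pass (limma adjusted p = 0.128), -0.47 ± 0.10 at 12 h (adjusted p = 0.00880) and -0.59 ± 0.10 at 24 h (adjusted p = 0.00119). Untreated cells at 24 h stood 0.24 ± 0.10 above 0 h (adjusted p = 0.174), a difference that ranged from -0.01 to 0.26 over the alternatives and was -0.02 and -0.11 on the other 2 probe sets. Each of the other TLE1 probe sets was also lower after 24 h of IL-13: 203220_s_at had 89.8, 70.1 and 73.6, against 140, 151 and 136 in untreated cells at 24 h, and 203222_s_at had 97.4, 58.9 and 75.2, against 115, 123 and 148. Over the 3 probe sets the 24 h difference ran from -0.83 to -0.53, and in none did the groups overlap. The 3 sets were read on the same arrays, and 26.2% of all tested genes also had 24 h groups that did not overlap. At 12 h of IL-13 they spread more widely, from -0.85 to -0.19 against 0 h, with 203222_s_at lowest at 78.3, 68.8 and 50.4.

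TLE4 (204872_at) had signals of 76.4, 80.3 and 84.8 at 0 h, 137, 145 and 143 at 4 h, 157, 128 and 117 at 12 h and 121, 88.2 and 105 at 24 h of IL-13, against 91.4, 68.0 and 82.7 in untreated cells at 24 h. The 4 h and 12 h arrays all lay above both untreated groups, and the deposited signals of the 24 h groups overlapped at 1 IL-13 array. Against 0 h the difference was 0.67 ± 0.14 at 4 h, which chose the gene, 0.58 ± 0.14 at 12 h and 0.29 ± 0.14 at 24 h of IL-13 (SE), and these values are a description. Between the 24 h groups, TLE4 was 1.37-fold higher with IL-13, a difference of 0.45 ± 0.14 that did not pass (limma adjusted p = 0.0649). It passed with median scaling (0.48, adjusted p = 0.0373) and without the IL-13 24 h array b, the lowest of its group (0.57, adjusted p = 0.0317). The other TLE4 probe sets were dim and below the filter. Of these, 214688_at had 27.0, 27.9 and 33.1 at 0 h, 56.5, 41.2 and 53.1 at 4 h and 46.4, 53.7 and 36.9 at 12 h of IL-13, a pattern like that of the brighter set. At 24 h it had 26.7, 39.5 and 25.3 with IL-13, against 33.3, 35.7 and 34.9 in untreated cells, and the groups overlapped. The probe set 216997_x_at, of a kind that can cross-hybridize, had 15.8, 38.9 and 34.0 at 0 h and 36.9, 38.0 and 35.5 at 4 h, and these groups overlapped.

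**Figure D2:**
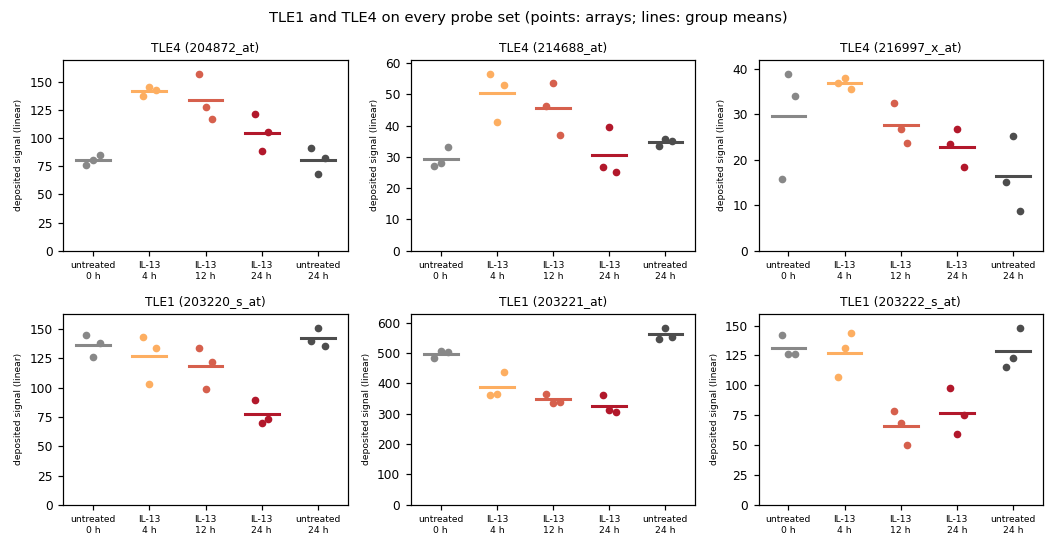
Deposited signal on a linear axis from 0 of the 3 TLE4 and 3 TLE1 probe sets in the 5 groups; points are arrays and lines group means, and each panel has its own scale. All 3 TLE1 probe sets are lower after 24 h of IL-13 than in untreated cells at 24 h, and 2 TLE4 sets, 204872_at and 214688_at, are highest at 4 h and 12 h.

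CTNNB1 encodes beta-catenin, which carries the signal to the nucleus and also links cadherins to the cytoskeleton. Its signal (201533_at) was 478, 437 and 525 at 0 h, 506, 532 and 624 at 4 h, 658, 770 and 637 at 12 h and 675, 854 and 677 at 24 h of IL-13, against 525, 925 and 552 in untreated cells at 24 h. Between the 24 h groups the arrays overlapped, the highest and the lowest being untreated ones. The 24 h difference was 0.10 ± 0.16, with a 95% interval from -0.24 to 0.44 (limma adjusted p = 0.739). Against 0 h, CTNNB1 was 0.53 ± 0.16 higher at 12 h of IL-13, which did not pass (adjusted p = 0.0759) but did with only the compared groups in the model (0.53, adjusted p = 0.0165) and with array weights (0.53, adjusted p = 0.0361). It rose by 0.59 ± 0.16 at 24 h of IL-13 (1.51-fold, adjusted p = 0.0344). This call was lost in 8 of 18 alternatives, among them leaving out any of the 3 arrays at 0 h or the IL-13 24 h array b or c, with values from 0.46 to 0.66 over those runs. Untreated cells at 24 h also stood 0.49 ± 0.16 above 0 h (adjusted p = 0.103), the lowest 24 h array and the highest 0 h array both being at 525.

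TCF7L2, the TCF factor to which beta-catenin binds in many epithelia, had 6 probe sets. The brightest (212761_at) gave 407, 330 and 342 after 24 h of IL-13, against 497, 536 and 517 in untreated cells at 24 h. The groups did not overlap, and the mean was 359 ± 41.4 with IL-13 and 517 ± 19.5 without (SD, n = 3). TCF7L2 fell by 0.57 on the log2 scale (SE 0.11, 1.48-fold, limma adjusted p = 0.00495). The call was kept with each array of the 24 h groups left out in turn. It was lost with median scaling (-0.33, adjusted p = 0.0859) and with the mean of the gene's probe sets (-0.36, adjusted p = 0.0622).

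Earlier arrays of the same set gave 481, 484 and 496 at 0 h, 394, 397 and 443 at 4 h and 403, 295 and 346 at 12 h of IL-13. All 9 IL-13 arrays were below all 6 untreated ones. The differences from 0 h were -0.21 ± 0.11 at 4 h (limma adjusted p = 0.505), -0.44 ± 0.11 at 12 h (adjusted p = 0.0276) and -0.42 ± 0.11 at 24 h of IL-13 (adjusted p = 0.0257). Each of the calls at 12 h and 24 h was lost without any of the 3 arrays at 0 h and without the IL-13 array b or c of its time, with differences from -0.45 to -0.33 at 12 h and from -0.43 to -0.38 at 24 h. The 12 h call was also lost with only the compared groups in the model (-0.44, adjusted p = 0.0627) and the 24 h call with median scaling (-0.43, adjusted p = 0.0585). Untreated cells at 24 h differed from 0 h by 0.14 ± 0.11 (adjusted p = 0.491), from -0.22 to 0.17 over the alternatives, and from -1.04 to 0.14 over its 6 probe sets, 4 of them lower.

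All 6 TCF7L2 probe sets were lower after 24 h of IL-13 than in untreated cells at 24 h, by amounts that differed between sets, from -0.57 to -0.14. In 212762_s_at the signals were 113, 110 and 102 with IL-13, against 157, 173 and 165 without, and in 216511_s_at they were 163, 152 and 131, against 199, 170 and 206. The smallest difference was in 216037_x_at, with 153, 158 and 150, against 189, 166 and 183. A sixth set, 212759_s_at, was dim and variable, from 5.22 to 94.7 over the 15 arrays, and its 24 h groups overlapped. The probe sets were not matched to transcripts here, so the difference between sets is given as a value only.

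**Figure D3:**
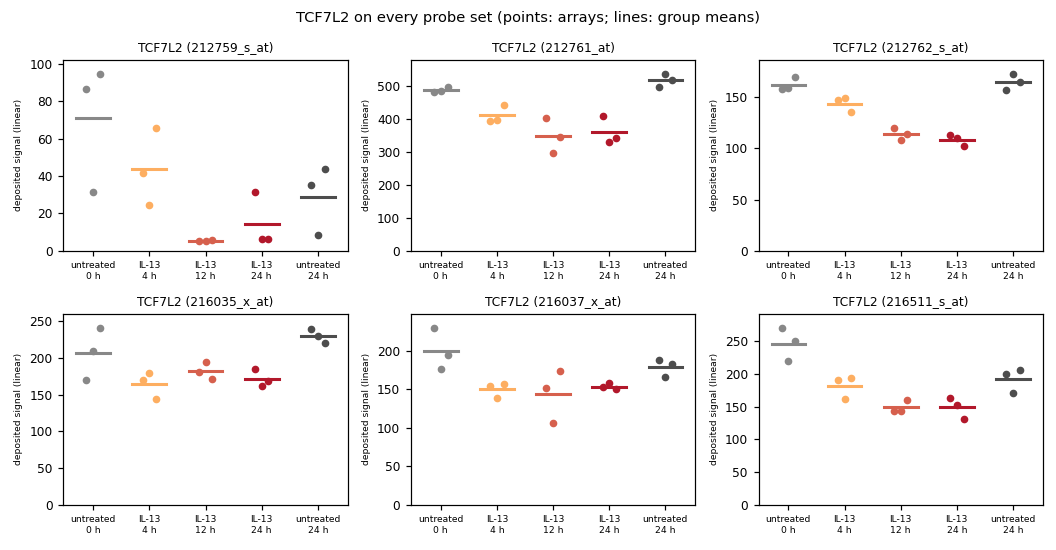
Deposited signal on a linear axis from 0 of the 6 TCF7L2 probe sets in the 5 groups; points are arrays and lines group means, and each panel has its own scale. In 5 of the 6 sets the arrays after 24 h of IL-13 lie below those of untreated cells at 24 h, and 212759_s_at ranges from 5.22 to 94.7 with overlapping 24 h groups.

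Among the receptors, FZD2 and FZD6 encode Frizzled proteins, which bind Wnt ligands at the cell surface, and LRP6 is the coreceptor that DKK1 blocks. FZD2 (210220_at) had signals of 256, 258 and 303 after 24 h of IL-13, against 386, 395 and 392 in untreated cells at 24 h. The untreated arrays lay close together, at 391 ± 4.50 (SD, n = 3), and above all 3 IL-13 arrays, at 272 ± 26.8. FZD2 fell by 0.53 on the log2 scale (SE 0.14, 1.44-fold, limma adjusted p = 0.0253). The call was lost with median scaling (-0.32, adjusted p = 0.160). It was also lost without the IL-13 24 h array a (-0.49, adjusted p = 0.0834) or b (-0.50, adjusted p = 0.0600) and without the untreated 24 h array a (-0.55, adjusted p = 0.0610) or c (-0.52, adjusted p = 0.0766). At the other times FZD2 had 442, 378 and 379 at 0 h, 265, 364 and 439 at 4 h and 397, 415 and 457 at 12 h of IL-13, and these groups overlapped with 0 h. The difference from 0 h was -0.17 ± 0.14 at 4 h (adjusted p = 0.740), 0.09 ± 0.14 at 12 h (adjusted p = 0.786) and -0.53 ± 0.14 at 24 h of IL-13 (adjusted p = 0.0242). The last of these was lost without the 0 h array a (-0.45, adjusted p = 0.106) or c (-0.57, adjusted p = 0.0506) and without the IL-13 24 h array a (-0.48, adjusted p = 0.0801) or b (-0.50, adjusted p = 0.0737), and with median scaling (-0.52, adjusted p = 0.0508). Between the untreated groups FZD2 differed by 0.00 ± 0.14.

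FZD6 (203987_at) had signals of 236, 225 and 245 after 24 h of IL-13, against 231, 222 and 248 in untreated cells at 24 h. The 2 groups overlapped throughout, and the difference was 0.03 ± 0.13, with a 95% interval from -0.24 to 0.29 (limma adjusted p = 0.922). Its signal was 173, 179 and 207 at 0 h, 236, 187 and 165 at 4 h and 199, 187 and 157 at 12 h of IL-13. Both 24 h groups lay above 0 h, by 0.31 ± 0.13 with IL-13 (adjusted p = 0.153) and 0.29 ± 0.13 without (adjusted p = 0.215), and neither difference passed.

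LRP6 (34697_at) was dimmer and more variable, at 77.3, 43.9 and 34.8 after 24 h of IL-13, against 125, 64.9 and 102 in untreated cells at 24 h. The groups overlapped at 1 array each. The difference was -0.57 ± 0.21, with a 95% interval from -1.02 to -0.12, and did not pass (limma adjusted p = 0.114). It passed without the IL-13 24 h array a (-0.82, adjusted p = 0.0311) or without the untreated 24 h array b (-0.77, adjusted p = 0.0415). The second LRP6 set, 205606_at, had 83.7, 38.2 and 21.7 with IL-13, against 69.9 to 77.8 in the 3 arrays without, and overlapped too. Earlier levels of 34697_at were 76.5, 61.2 and 72.2 at 0 h, 65.5, 56.0 and 80.0 at 4 h and 67.1, 90.1 and 88.9 at 12 h of IL-13, all overlapping.

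WNT5A, the ligand of the group, had both of its probe sets below the filter, so it was not tested. Its brighter set (205990_s_at) gave 28.4, 26.4 and 25.2 at 0 h, 32.7, 36.0 and 44.5 at 4 h, 19.7, 23.4 and 39.6 at 12 h and 24.3, 19.9 and 23.4 at 24 h of IL-13, against 29.5, 12.8 and 26.1 in untreated cells at 24 h. The 4 h arrays were all above the 0 h arrays, and the 2 groups at 24 h overlapped. The second set (213425_at) averaged 9.65. No difference between groups is called at these signals, and no detection calls were used here.

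Ordered by the 24 h difference with IL-13 minus without, the tested genes ran from TLE1 (-0.83) through TCF7L2 and LRP6 (-0.57 each) and FZD2 (-0.53) to FZD6 (0.03), CTNNB1 (0.10) and TLE4 (0.45). TCF7L2, LRP6 and FZD2 lie within 1 SE of each other, as do FZD6 and CTNNB1. Of the 9 genes, 8 had a probe set over the filter, and 6 remain when DKK1 and TLE4 are set aside. Among these 6, 3 fell and none rose between the 24 h groups by limma. Of 6884 genes tested, 7.00% passed there (3.94% rose, 3.07% fell). An unadjusted limma p under 0.05 was found for 4 of the 6. All shares of genes given here are for the adjusted p, and none was computed for the unadjusted p. The median difference of the 6 was -0.55, beside 0.00 for all tested genes. Against 0 h, none of the 6 passed at 4 h of IL-13, beside 1.22% of all genes (0.349% rose, 0.872% fell). Of the 6, 1 had an unadjusted p under 0.05 there and 1 passed with array weights. At 12 h of IL-13, 2 fell, beside 4.14% of all genes (1.55% rose, 2.59% fell), and at 24 h of IL-13, 3 fell and 1 rose, beside 6.87% (3.40% rose, 3.47% fell). Between the untreated groups none of the 6 passed by limma, beside 3.62% of all genes (1.73% rose, 1.89% fell), and 3 had an unadjusted p under 0.05. The comparisons with 0 h share the 0 h arrays, and those with 24 h of IL-13 share those arrays. With median scaling the median of all tested genes moved to 0.14 between the 24 h groups, and 1 of the 6 genes, TLE1, fell.

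**Figure D4:**
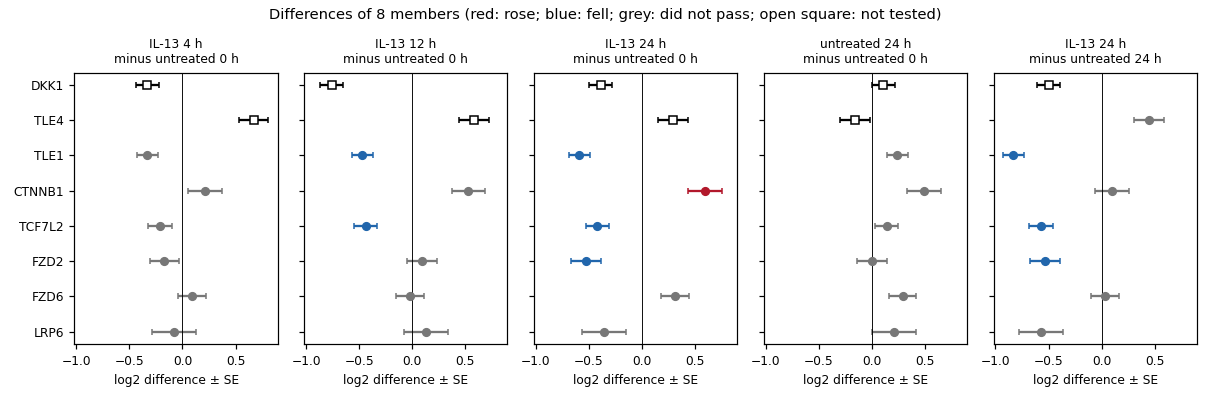
Differences on the log2(signal + 20) scale (horizontal, with SE bars) of the 8 genes with a probe set over the filter (vertical), in 5 comparisons; filled circles are tested values and open squares values with no test. TLE1, TCF7L2 and FZD2 fell between the 24 h groups, at -0.83, -0.57 and -0.53, and DKK1 is lowest at 12 h, at -0.76.

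Beyond these genes, 100 others of the pathway were listed by role, of which 81 had a probe set named for them alone and 46 were over the filter. Between the 24 h groups, 3 of the 46 rose and 1 fell, 8.70% beside 7.00% of all genes, with a median of -0.03. At 4 h of IL-13, 1 rose against 0 h (2.17%, beside 1.22% of all genes). At 12 h, 2 rose and 1 fell (6.52%, beside 4.14%). At 24 h of IL-13 against 0 h, 4 rose and 1 fell (10.9%, beside 6.87%). None of the 46 passed between the untreated groups by limma, beside 3.62% of all genes. An unadjusted p under 0.05 was found for 6 of them, with no share of all genes computed for it. With median scaling 2 passed, where 51 of 6883 genes tested rose and 826 fell. AXIN2, a common readout of the pathway, has no probe set named for it alone here.

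Of 11 other secreted inhibitors listed, 3 were tested. Of these, SFRP1 and DKK3 rose between the 24 h groups, beside 3.94% of all tested genes. The third, SFRP4, differed by 0.09 ± 0.12 and did not pass (limma adjusted p = 0.685). DKK1, with no test, was lower. SFRP1, a soluble protein that binds Wnt ligands away from their receptors, had signals (202037_s_at) of 390, 368 and 395 after 24 h of IL-13, against 232, 240 and 199 in untreated cells at 24 h. No arrays overlapped, and SFRP1 rose by 0.75 ± 0.10 (1.68-fold, limma adjusted p = 0.000145), a call kept in all 18 alternatives. All 3 SFRP1 probe sets were higher. It had 252, 226 and 230 at 0 h, 287, 284 and 308 at 4 h and 396, 400 and 411 at 12 h of IL-13. Against 0 h the difference was 0.31 ± 0.10 at 4 h (adjusted p = 0.161) and 0.74 ± 0.10 at 12 h (adjusted p = 0.000177). DKK3, a divergent relative of DKK1, had signals (214247_s_at) of 76.3, 81.8 and 114, against 57.7, 64.4 and 45.1. It rose by 0.70 ± 0.17 (adjusted p = 0.0201), a call lost without the IL-13 24 h array c (0.55, adjusted p = 0.123) or the untreated 24 h array c (0.57, adjusted p = 0.0887), and with only the compared groups in the model (0.70, adjusted p = 0.0692). The other 4 DKK3 sets were below the filter, and 2 of them had the same sign.

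Among ligands, WNT6 (71933_at) had signals of 240, 376 and 227 after 24 h of IL-13, against 417, 405 and 528 in untreated cells at 24 h. It fell by 0.69 on the log2 scale (SE 0.17, limma adjusted p = 0.0239), and the call was lost without the IL-13 24 h array a (-0.59, adjusted p = 0.0916) or c (-0.57, adjusted p = 0.123) or the untreated 24 h array c (-0.56, adjusted p = 0.108). It was also lost with no filter (-0.69, adjusted p = 0.0518) and with only the compared groups in the model (-0.69, adjusted p = 0.0540). Untreated cells at 24 h stood 0.57 ± 0.17 above 0 h, where WNT6 had 301, 300 and 308, which did not pass (adjusted p = 0.0755) but did with only the compared groups in the model (0.57, adjusted p = 0.0434) and, just under the threshold, with array weights (0.56). After 24 h of IL-13, WNT6 differed from 0 h by -0.12 ± 0.17, which did not pass (limma adjusted p = 0.762), with overlapping groups. The other 3 WNT6 sets were far below the filter, averaging 5.72, 8.89 and 2.63. Between the 24 h groups they differed by -0.11, -0.10 and 0.00, so the call rests on 71933_at alone.

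Of 4 genes known as Wnt targets that were tested, 1 rose between the 24 h groups and none fell. Of all tested genes, 3.94% rose and 3.07% fell there. CD44, an adhesion receptor, had signals (212063_at) of 790, 793 and 729 at 0 h, 1090, 1100 and 1150 at 4 h, 1240, 1240 and 1380 at 12 h and 1410, 1200 and 1410 at 24 h of IL-13, against 776, 907 and 897 in untreated cells at 24 h. All 9 IL-13 arrays were above all untreated ones, and CD44 rose by 0.51 ± 0.09 between the 24 h groups (limma adjusted p = 0.00271). Of its 7 other sets, 5 had the same sign there, from -0.60 to 0.97. Against 0 h it rose by 0.52 ± 0.09 at 4 h (adjusted p = 0.00455), a call lost with the mean of its probe sets (0.25, adjusted p = 0.259), by 0.71 ± 0.09 at 12 h (adjusted p = 0.000175) and by 0.76 ± 0.09 at 24 h of IL-13 (adjusted p = 5.1e-05). MYC, a growth regulator, had 515, 484 and 526 at 12 h of IL-13, against 724, 751 and 657 at 0 h, and fell by 0.42 (SE 0.10, adjusted p = 0.0245). This call was lost without any of 5 of the 6 arrays, all but the 0 h array c, and at 24 h of IL-13 the MYC difference from 0 h was -0.03 ± 0.10. MMP7, a secreted protease, had 440, 355 and 527 at 24 h of IL-13, against 269, 290 and 279 at 0 h, and rose by 0.60 ± 0.14 (adjusted p = 0.0123), lost without the IL-13 24 h array c (0.48, adjusted p = 0.0800). Against untreated cells at 24 h its difference was 0.40 ± 0.14 (adjusted p = 0.0836), and it passed with median scaling (0.60, adjusted p = 0.0146) and without the IL-13 24 h array b (0.52, adjusted p = 0.0383).

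CDH1, which encodes E-cadherin, the junction protein that holds beta-catenin at the membrane, had signals (201131_s_at) of 54.3, 53.8 and 75.1 at 0 h, 34.3, 69.7 and 68.4 at 4 h, 92.2, 97.6 and 147 at 12 h and 178, 139 and 167 at 24 h of IL-13, against 117, 90.4 and 119 in untreated cells at 24 h. Against 0 h it rose by 1.12 ± 0.20 at 24 h of IL-13 (2.18-fold, limma adjusted p = 0.00258). Untreated cells at 24 h also stood 0.53 ± 0.20 above 0 h, with no overlap, which did not pass (adjusted p = 0.151). Between the 24 h groups the difference was 0.59 ± 0.20, with no overlap, and did not pass (adjusted p = 0.0853), whereas it did with median scaling (0.67, adjusted p = 0.0330) and with only the compared groups in the model (0.59, adjusted p = 0.0460). The second CDH1 set, 201130_s_at, was below the filter. After 24 h of IL-13 it differed by 0.37 ± 0.22 from 0 h and by 0.10 ± 0.22 from untreated cells at 24 h. GSK3A, a kinase of the destruction complex, fell by 0.38 (SE 0.11, adjusted p = 0.0476) at 24 h of IL-13 against 0 h, a call lost in 12 of 18 alternatives, among them leaving out any 0 h array or the IL-13 24 h array a or c, with values from -0.48 to -0.23 over all 18. Its second set, 202210_x_at, differed by -0.09 ± 0.50 there. Between the 24 h groups GSK3A differed by -0.23 ± 0.11 and did not pass (limma adjusted p = 0.205), with overlapping groups. Untreated cells at 24 h differed from 0 h by -0.14 ± 0.11. The brightest gene of each further role did not pass between the 24 h groups: RYK among receptors differed by 0.06, DVL2 by -0.17, CSNK1A1 of the destruction complex by -0.03, FRAT2 by -0.03, TCF7L1 by -0.25, CTBP2 among corepressors by -0.18, CREBBP among coactivators by -0.39, CTNNA1 of the adherens junction by -0.02 and CELSR2 of planar polarity by -0.13. Of these, CREBBP came nearest to passing (SE 0.12, limma adjusted p = 0.0603).

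**Figure D5:**
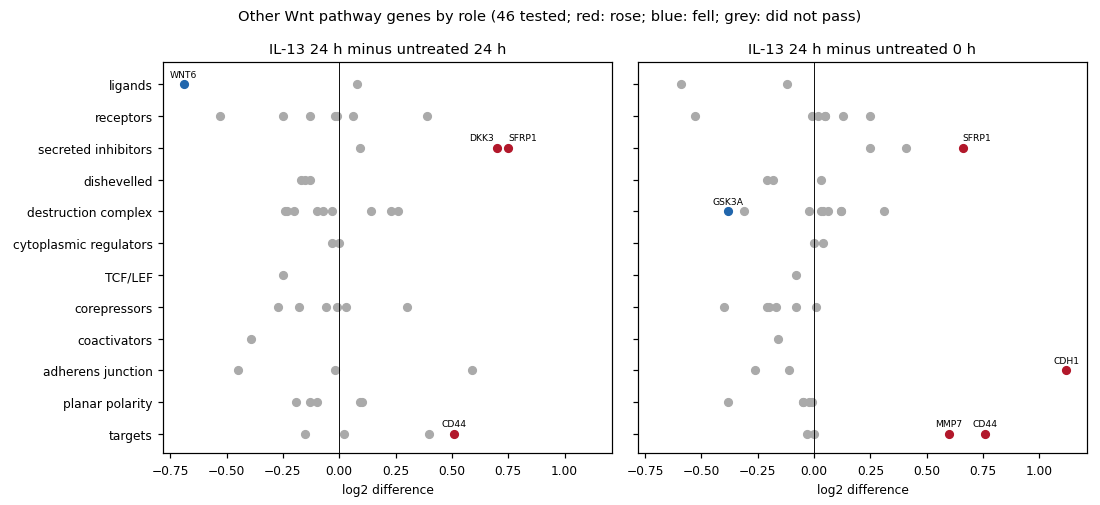
Differences on the log2(signal + 20) scale (horizontal) of 46 other Wnt pathway genes, by role (vertical), for 24 h of IL-13 minus untreated cells at 24 h (left) and minus untreated cells at 0 h (right); each point is a gene. SFRP1 and CD44 rose in both panels, DKK3 rose and WNT6 fell on the left, and CDH1 and MMP7 rose and GSK3A fell on the right.

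Over the 15 arrays, the 5 genes whose log2 signal followed DKK1 most closely among those tested were GRB10 (Pearson r = 0.93), RPN2 (0.90), EDN1 (0.89), CLASRP (0.85) and PAWR (0.85). For TLE4 they were LYRM2 (0.88), RIPK4 (0.85), SLC26A2 (0.84), EXT1 (0.84) and PNMA1 (0.83). For the dim WNT5A they were NKX2-5 (0.83), STAT6 (0.82), SLC35H1 (0.80), PPP2R1A (0.80) and CHKA (0.79). Among the 8 genes themselves, TLE1 and TCF7L2 had r = 0.95, DKK1 and TLE1 0.79, DKK1 and TCF7L2 0.77, and DKK1 and TLE4 -0.72. These are descriptions over 15 arrays that fall into the 5 groups and share one cell line, so differences between groups enter every r.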

How the data were processed

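Signal intensity per probe set, on a linear scale, was used as deposited by the authors for 15 arrays; the steps behind it (probe summary, scaling) are not given in the sources used here. After trimming 2% at each end, every array had a mean of 150. The members and gene lists were chosen with earlier results of these data known. A pseudocount of 20 was added and log2 taken; the spread of array medians was 0.269 log2, above a tolerance of 0.1, so arrays were quantile normalized. Folds are on that scale, which understates changes of dim genes. Of the probe sets, 68 were controls, 19065 had 1 symbol in the platform annotation, 1043 several and 2107 none. A gene is its brightest probe set, _x_at sets only where there is no other. The 6884 genes with mean log2 over 6.33 (50th percentile, a signal of 60.3) were tested with limma 3.58.1 in R 4.3.3: 1 mean per group, 10 residual degrees of freedom, variance trend, two-sided, Benjamini-Hochberg adjustment over all genes, threshold 0.05. The number of arrays limits precision. The steps were tested on simulated data. Genes named are the 9 members; list genes past the threshold in a comparison (up to 8); the brightest tested gene of each role; and the 5 most correlated with DKK1, TLE4 and WNT5A. Replicate letters did not pair the arrays: same-letter deviations correlated at -0.22 to 0.11. Alternatives were the deposited scaling, median scaling, other pseudocounts, filters and probe-set rules, only the compared groups, no trend, array weights, a replicate block and leaving out each array of the compared groups.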

Additional observations from a re-analysis of the deposited data

Results flagged for a closer look

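For the brightest probe sets of 3 genes the change over 24 h ran opposite ways with and without IL-13, with groups that did not overlap in either direction after quantile normalization, and the difference between the 2 changes, which is the difference between the 24 h groups, passed the limma test. Of all tested genes, 26.7% had groups that did not overlap between 24 h of IL-13 and 0 h, and 24.7% between the untreated groups. The share of genes that meet all these conditions was not computed. TLE1 differed from 0 h by -0.59 with IL-13 and by 0.24 without, a difference of -0.83 ± 0.10 (adjusted p = 5.6e-05). The other TLE1 sets did not show the untreated change, at -0.02 and -0.11, with overlapping groups. TCF7L2 differed from 0 h by -0.42 with IL-13 and by 0.14 without, a difference of -0.57 ± 0.11 (adjusted p = 0.00495). Of its 6 sets, 2 were higher and 4 lower between the untreated groups (24 h minus 0 h), from -1.04 to 0.14, and 216037_x_at (-0.17) and 216511_s_at (-0.36) were lower with no overlap, the same way as with IL-13. DKK3 differed from 0 h by 0.41 with IL-13 and by -0.29 without, a difference of 0.70 ± 0.17 (adjusted p = 0.0201). Its deposited signals overlapped between the untreated groups, at 57.7, 64.4 and 45.1 at 24 h, against 63.6, 58.3 and 61.8 at 0 h. None of the 3 changes in untreated cells passed on its own. The untreated change of the brightest set took the other sign under at least 1 alternative for TLE1 (-0.01 to 0.26) and TCF7L2 (-0.22 to 0.17), and kept its sign for DKK3 (-0.40 to -0.11).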

How the results depend on the processing

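No difference past the threshold changed sign in any alternative run. Of the 6 members tested for a count, 3 passed between the 24 h groups; 1 did with median scaling, and 2 to 4 with an array left out. At 4 h of IL-13 none passed, and 1 did with array weights. At 12 h, 2 passed, 3 with array weights and 1 to 2 with an array left out. At 24 h of IL-13 against 0 h, 4 passed, 1 with median scaling and 1 to 3 with an array left out. Of the 46 other genes, 4 passed between the 24 h groups, 6 with median scaling, 2 with the mean of probe sets and 2 to 5 with an array left out; at 4 h, 1 passed and 0 did with the mean of probe sets. At 24 h of IL-13 against 0 h, 5 passed, 3 with the mean of probe sets and 3 to 5 with an array left out. Between the untreated groups none passed, 2 did with median scaling, 1 with only the compared groups and 1 with array weights. The mean of probe sets leaves fewer of the 46 over the filter (34); the other causes were not tested. With the replicate block, members passing stayed at 3 between the 24 h groups and 4 at 24 h against 0 h, and the 46 gave 4 in place of 5 there; the letters did not pair the arrays (3 of 30 same-letter pairs over 0.1).

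Median scaling moved the median of all tested genes to 0.14 between the 24 h groups (952 rose and 66 fell, 93.5% of calls higher, against 271 and 211, 56.2%, after quantile normalization) and to -0.15 between the untreated groups (51 rose and 826 fell, 5.82% higher, against 47.8%). At 12 h against 0 h the share was 18.2%, against 37.5%. Values near a signal of 60.3, LRP6 and TLE4 among them, are limited by 3 arrays a group.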
